A study of Mus musculus with 4 samples.

Results

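Macrophages of the mouse lung that carried transcripts of complement C1q and of MHC class II, with few of Lyve1, were examined in single-cell RNA profiles of lungs from 4 groups of mice. A barcode was a member if it had at least 300 genes and at most 10% mitochondrial UMIs (unique molecular identifiers, the counted transcripts). It also needed at least 10 UMIs of C1qa, C1qb and C1qc together, at least 10 of H2-Aa, H2-Ab1 and H2-Eb1 together, at most 1 of Lyve1, Folr2 and Cd209f together, fewer than 15 of Ccl3 and Ccl4 together, no Cdh5 and at most 1 of Col1a2. Of 15793 barcodes that passed the limits on genes and mitochondrial UMIs, 203 were members. The group libraries held 47 (LAIR1KO tumor-bearing), 79 (WT tumor-bearing), 58 (LAIR1KO normal) and 19 (WT normal) of them. Comparisons were made with the 1722 C1q-high macrophages that had at least 2 UMIs of Lyve1, Folr2 and Cd209f (the Lyve1/Folr2 high gate) and the 515 with at most 1 such UMI and at least 15 of Ccl3 and Ccl4 (the Ccl3/Ccl4 high gate).

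The study set LAIR1KO against wild-type (WT) mice, both in lungs with tumors of B16/F10, a melanoma line of the mouse, and in normal lungs, to ask what the collagen receptor LAIR1 does in lung monocytes and macrophages. LAIR1KO animals lack this receptor by label, and the allele, the cells it is deleted in, the strain, the age, and the route and day of the tumor were not given in the sources used here. All animals were kept in a pathogen-free facility. Each group was 1 library of 3 mice told apart by hashtag antibodies, so 12 mice were compared and group and library cannot be told apart.

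Interstitial macrophages lie in the connective tissue of the lung, around airways, vessels and nerves, apart from the macrophages in the air spaces. In mice they are known as a LYVE1-high kind near blood vessels, which takes up debris, and a kind with high MHC class II and CX3CR1, which can present antigen to CD4 T cells. MHC class II molecules pair an alpha and a beta chain, are kept empty by the invariant chain Cd74, are loaded with peptide by the H2-DM chaperones after proteases such as cathepsin S have cut Cd74, and are transcribed under the coactivator CIITA, which sits on proteins bound to the X and Y boxes of their promoters.

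The 250 bases before the starts of H2-Aa (alpha chain of I-A) and H2-Eb1 (beta chain of I-E) are shown because both genes chose the members and both windows hold the letters CTGATTGG, the core of the Y box, an inverted CCAAT element that is known to bind NF-Y. The sequences are from RefSeq (GRCm38.p6), each on its own gene's strand, with the match in capitals.
H2-Aa, chr17:34287824-34288073, minus strand: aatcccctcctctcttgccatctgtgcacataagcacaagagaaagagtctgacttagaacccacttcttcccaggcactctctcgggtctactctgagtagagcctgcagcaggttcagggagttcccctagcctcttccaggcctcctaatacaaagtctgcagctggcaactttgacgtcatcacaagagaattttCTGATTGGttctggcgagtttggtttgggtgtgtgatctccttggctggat
H2-Eb1, chr17:34305617-34305866, plus strand: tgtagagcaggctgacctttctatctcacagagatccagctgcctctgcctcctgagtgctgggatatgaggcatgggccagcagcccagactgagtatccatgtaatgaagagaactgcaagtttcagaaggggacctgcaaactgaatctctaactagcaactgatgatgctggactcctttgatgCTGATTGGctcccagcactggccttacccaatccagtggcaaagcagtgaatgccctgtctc
The match began 51 bases before the start of H2-Aa and 62 bases before the start of H2-Eb1. Searched on both strands, these letters occurred in 4 of 16 promoters of 14 genes (25%) among the 22 MHC class II presentation genes and gate genes looked up, the other two being H2-Oa and H2-Eb2, and in 1258 of all 32851 promoters of the table (3.83%). A match here is only a description of the letters.

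The 4 libraries held 25216301 to 28034709 gene UMIs in 3295 to 4727 barcodes. By the whole libraries, the WT normal mice were male (Ddx3y, a Y-linked helicase, 190.3 to 215 CPM, counts per 1000000 UMIs) and those of the 3 remaining groups female (Xist, which comes from the inactive X, 1130.1 to 1375 CPM), so any comparison with WT normal lungs is also one between sexes. Members had a median of 4558 UMIs and 1771 genes per cell, with medians of 4929 UMIs in LAIR1KO tumor-bearing lungs, 4466 in WT tumor-bearing lungs, 4026 in LAIR1KO normal lungs and 7640 in WT normal lungs. Of the 203 members, 189 were assigned to a mouse, which gave 13, 13 and 18 cells in the LAIR1KO tumor-bearing mice, 28, 19 and 25 in the WT tumor-bearing mice, 16, 23 and 16 in the LAIR1KO normal mice, and 8, 9 and 1 in the WT normal mice. Summed over its member cells, a mouse had 64330 to 138315 UMIs, apart from 10121 in the WT normal mouse with 1 cell, which entered no gene test. Across the 4 libraries 27 barcodes occurred in more than 1 library, 1 of them among the members.

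Lair1, the gene that the LAIR1KO label names, went with the labels in the members. Lair1 (chromosome 7, 4003402 to 4063204, minus strand, mm10) had 0, 0 and 10.3 CPM in LAIR1KO tumor-bearing and 238, 204 and 174 CPM in WT tumor-bearing mice, or 1 UMI in 44 cells against 75 UMIs in 72 cells. The summed level was 4.37 CPM in LAIR1KO tumor-bearing (exact 95% Poisson interval 0.111 to 24.3) and 204 CPM in WT tumor-bearing cells (160.5 to 256). It fell by 5.15 on the log2 scale (SE 0.79, adjusted p = 0.00523, edgeR's quasi-likelihood test on UMIs summed per mouse). In normal lungs no UMI was seen in 55 LAIR1KO cells (exact interval up to 14.9 CPM), against 15 UMIs in 18 WT cells (106 CPM, 59.2 to 174). These intervals cover counting error only. No Lair1 UMI was seen in the LAIR1KO cells of the other 2 gates. In WT tumor-bearing lung its level was 204 CPM in MHC class II high, 192 CPM in Lyve1/Folr2 high and 165 CPM in Ccl3/Ccl4 high cells, with exact 95% Poisson intervals of 160.5 to 256, 175 to 210 and 140.04 to 193 CPM that overlapped.

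The members were chosen by the UMIs of the 13 genes of the rule, and these values are given as a description. The C1q genes, which encode the chains of the recognition molecule of the classical complement pathway, summed to a median of 47 UMIs per member (quartiles 33 and 63.5, range 10 to 134). The 3 MHC class II genes of the rule summed to a median of 94 UMIs (quartiles 44 and 160.5, range 10 to 522), with medians of 120 in LAIR1KO tumor-bearing cells, 74 in WT tumor-bearing cells, 80.0 in LAIR1KO normal cells and 154 in the deeper WT normal cells. Lyve1, Folr2 and Cd209f were all at 0 in 151 of 203 members, and Ccl3 and Ccl4 had a median of 2 UMIs together. Summed per mouse, C1qa had 3700, 4675 and 4288 CPM in LAIR1KO tumor-bearing, 4775, 3737 and 4078 CPM in WT tumor-bearing, 4848, 4295 and 3668 CPM in LAIR1KO normal and 2067 and 2849 CPM in WT normal lungs. H2-Aa had 6924, 10557 and 9669 CPM in LAIR1KO tumor-bearing, 8370, 6135 and 6825 CPM in WT tumor-bearing, 8782, 7957 and 7704 CPM in LAIR1KO normal and 7772 and 7820 CPM in WT normal lungs. H2-Eb1 had 7310, 10387 and 9175 CPM in LAIR1KO tumor-bearing, 8481, 5746 and 5979 CPM in WT tumor-bearing, 7998, 7623 and 6571 CPM in LAIR1KO normal and 8037 and 7760 CPM in WT normal lungs.

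Cells on both sides of the limits were set side by side, with no test. The 12 members with 10 to 14 MHC class II UMIs had 2959 CPM of Cd74 and no Ccr2, and the 21 cells just below the limit, with 5 to 9, had 2709 CPM of Cd74 and no Ccr2. Both sets were thus close to each other and far below the mean of all members, since Cd74 averaged 21095 ± 3282 CPM over mice (SD, n = 11). The values of the 2 sets are pooled over cells, while that mean is over mice and takes in the low cells. The 52 members with 1 UMI of Lyve1, Folr2 and Cd209f had 146 CPM of Ccr2 and 1555 CPM of Mrc1, and the 38 cells with 2 such UMIs had 50.5 CPM of Ccr2 and 1580.4 CPM of Mrc1. The 29 members with 10 to 14 UMIs of Ccl3 and Ccl4 had 441 CPM of Mmp12, and the 16 cells with 15 to 19 had 1380.1 CPM. The 6 members with 10 to 14 C1q UMIs had 315 CPM of Csf1r and 32272 CPM of Cd74, and the 6 cells with 5 to 9 had 102 CPM of Csf1r and 30409 CPM of Cd74.

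The label was checked against genes outside the rule. All 14 macrophage identity genes were detected, among them Csf1r (receptor of the growth factor CSF1) at 639 to 1232 CPM per mouse, Adgre1 (the antigen F4/80) at 249 to 915, Mertk (a receptor for dying cells) at 14.8 to 74.3, Lyz2 (lysozyme) at 3835 to 8752 and Apoe (a lipid carrier) at 3995 to 16736. Of the remaining markers of the label, Ms4a7, a membrane protein of macrophages outside the air spaces, had 535, 356 and 639 CPM in LAIR1KO tumor-bearing, 966, 835 and 383 CPM in WT tumor-bearing, 668, 604 and 567 CPM in LAIR1KO normal and 171 and 816 CPM in WT normal lungs. Mmp12, the macrophage elastase, had 149, 728 and 485 CPM in LAIR1KO tumor-bearing, 47.5, 146 and 108 CPM in WT tumor-bearing, 450.0, 530 and 113 CPM in LAIR1KO normal and 482 and 0 CPM in WT normal lungs. Ms4a7 was thus found in every mouse, while Mmp12 varied widely and was at 0 in 1 mouse. The place of the cells in the lung was not measured, and they are called MHC class II high macrophages below.

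Transcripts of single genes were counted cell by cell. A UMI of Mmp12 was seen in 14.3% of the 196 members that were no hashtag doublet, against 1.53% of 1440 Lyve1/Folr2 high cells, 17.6% of 499 Ccl3/Ccl4 high cells and 0.476% of 1890 endothelial barcodes with at least 2 Cdh5 UMIs, at median depths of 4484, 5442, 4751 and 5914 UMIs. Thinned to 3000 UMIs per cell, the shares were 13.7, 1.47, 17.3 and 0.137% (21, 82, 54 and 430 shallower cells were left out). Ccr2, the receptor of the monocyte chemokine CCL2, was seen in 33.7% of members, 5.63% of Lyve1/Folr2 high, 27.3% of Ccl3/Ccl4 high and 0.741% of endothelial barcodes, and in 31.4, 3.68, 25.2 and 0.479% after thinning. Itgax, which encodes the integrin CD11c, was seen in 19.4, 2.36, 18.2 and 1.01% of the same 4 sets, and in 16.6, 0.957, 14.6 and 0.548% after thinning. Cx3cr1, the receptor of fractalkine, was seen in 78.6, 56.9, 69.5 and 1.43%, and in 67.4, 46.7, 58.4 and 0.959% after thinning. For these 4 genes the members stood above the endothelial barcodes, which should lack them, and above the Lyve1/Folr2 high cells. Mmp12 was seen in a larger share of Ccl3/Ccl4 high cells than of members. Ms4a7, a marker of the label, was seen in 79.1, 84.1, 84.8 and 1.38% of the same 4 sets, and in 70.9, 70.7, 78.2 and 0.959% after thinning. As counted, its share in the members was thus below that in either other macrophage gate.

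Most members held few UMIs of the marker lists of other lung cells. The median per member was 2 UMIs of the epithelial list and 1 each of the neutrophil, B cell and fibroblast lists. Of 203 members, 29 had no UMI of the epithelial list and 67 had none of the neutrophil list. Over 11 mice, the alveolar macrophage list summed to 0 to 513 CPM, with 5 of its 11 genes at 0, and Ear2 made up 90.5% of it. The dendritic cell list summed to 127 to 544 CPM with 2 of 11 genes at 0, the T and natural killer cell list to 0 to 10.3 CPM with 9 of 12 at 0, and the melanoma list to 0 to 14.8 CPM with 5 of 6 at 0. The classical monocyte list summed to 127 to 466 CPM, of which Ccr2 gave 91.6%. The B cell list summed to 134 to 736 CPM, of which Ighm gave 85.2%. The fibroblast list summed to 123 to 475 CPM, and no gene of these lists was at 0. Neutrophil markers ranged from 155 to 8767 CPM and epithelial markers from 342 to 12289 CPM, and single mice set the upper ends. LAIR1KO tumor-bearing replicate 1 had 4235 CPM of S100a9, against 31.0 and 61.9 CPM in the other LAIR1KO tumor-bearing mice, and WT tumor-bearing replicate 2 had 8581 CPM of Sftpc, against 301 and 304 CPM in the other WT tumor-bearing mice. In all, 12 members (1 of LAIR1KO tumor-bearing lungs, 4 of WT tumor-bearing lungs, 4 of LAIR1KO normal lungs and 3 of WT normal lungs) held at least 20 UMIs of the list of another cell type, up to 945 of the neutrophil and 1669 of the epithelial list. These cells stayed in unless said otherwise, as did the 3 members marked as doublets by Scrublet.

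Genes of the rule, of X and Y, of ribosomes, mitochondria, antibodies and T cell receptors, and unnamed gene models were passed over here. Among the rest, Cd74 was the highest over the mice, followed by Malat1, a nuclear RNA (19256 CPM), Actb (13199), Apoe (10620.4 ± 3482) and the ferritin chain Fth1 (8789). The heat shock gene Hspa1b (5217 CPM) and the neutrophil chemokine Cxcl2 (3975 ± 2141 CPM, SD, n = 11) were also near the top. Within the members, and with the same genes passed over, Apoe, Hspa1b, Cxcl2, Hspa1a and the metallothionein Mt1 varied most between cells beyond what counting gives. Their residual variances were 31.3, 26.9, 26.6, 21.7 and 20.2, for values near 1 expected of counting alone. A few cells held much of some cytokine transcripts. Cxcl2 was seen in 69.9% of members, and the 10 highest cells held 36.0% of its UMIs. Il1b, an inflammatory cytokine, was seen in 52.0% and the 10 highest cells held 48.6% of its UMIs, and the monocyte chemokine Ccl7 was seen in 43.9% with 59.2% in 10 cells. Cxcl13, a chemokine that draws B cells, was seen in 18.4% of members, with 78.7% of its 516 UMIs in 10 cells. Over all members of a group its level was 60.4 CPM in LAIR1KO tumor-bearing lungs, 972 CPM in WT tumor-bearing lungs, 485 CPM in LAIR1KO normal lungs and 35.3 CPM in WT normal lungs.

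Against Lyve1/Folr2 high macrophages of the same mice, MHC class II high macrophages carried more transcripts of antigen presentation and of Ccr2. They carried fewer of genes known from LYVE1-high macrophages. Against Ccl3/Ccl4 high macrophages neither Ccr2 nor any LYVE1-high gene passed, and presentation genes went both ways, as given below. The test was edgeR's quasi-likelihood test on UMIs summed per mouse and gate, with the mouse as a block, over the 9 mice with at least 10 cells in both gates, none of them WT normal. Against Lyve1/Folr2 high macrophages, 300 of 5661 genes passed as higher (5.3%) and 313 as lower (5.53%) at an adjusted p under 0.05, 10.8% in all. The cells were divided by UMIs of 13 genes in the same cells, which were not tested. Genes that go along with those 13 thus differ through the division itself. Some limits held on 1 side only. The members had to have few Ccl3 and Ccl4 UMIs and a minimum of MHC class II UMIs. The Lyve1/Folr2 high gate set no limit on either. How much these limits alone lowered cytokine and raised presentation transcripts in the members was not tested. The median log2 fold change over all genes was 0.002. In such sums, fewer transcripts per cell cannot be told apart from fewer cells that carry them.

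**Figure D1:**
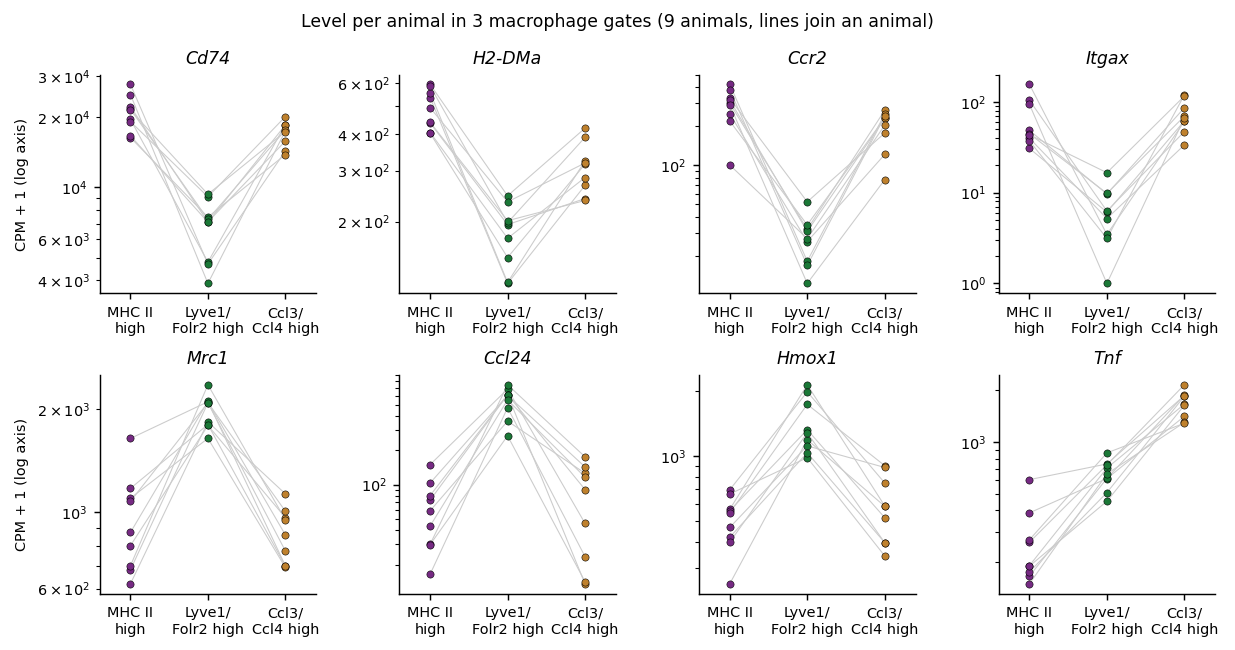
Level of 8 genes outside the rule in each of 9 mice, in MHC class II high, Lyve1/Folr2 high and Ccl3/Ccl4 high macrophages (CPM + 1, log axis; grey lines join the gates of a mouse). Cd74, H2-DMa, Ccr2 and Itgax sat higher in MHC class II high than in Lyve1/Folr2 high cells in 9 of 9 mice, and Mrc1, Ccl24, Hmox1 and Tnf sat lower.

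The machinery around MHC class II was higher in the members than in Lyve1/Folr2 high cells, which needed no minimum of MHC class II UMIs. Cd74, which was not part of the rule, ranged from 16366 through a median of 21413 to 27631 CPM over 9 mice in MHC class II high cells and from 3878 through 7121 to 9353 CPM in Lyve1/Folr2 high cells (log2 fold change 1.70 ± 0.23 SE, adjusted p = 0.00138, edgeR). The 2 ranges did not overlap. H2-DMa, a chain of the peptide-loading chaperone, had 402 through 494 to 594 CPM in MHC class II high and 121 through 194 to 244 CPM in Lyve1/Folr2 high cells (1.5 ± 0.14, adjusted p = 3.92e-11, edgeR), and Ciita, the coactivator, had 28.3 through 46.4 to 87.1 CPM against 7.40 through 10.5 to 26.0 CPM (1.96 ± 0.38, adjusted p = 0.000182, edgeR). Both ranges were apart. H2-DMb1 averaged 382 ± 148 CPM in MHC class II high and 105 ± 32.7 CPM in Lyve1/Folr2 high cells (SD, n = 9; 1.87 ± 0.34, adjusted p = 0.00644, edgeR). Of 12 tested genes of the presentation list, 7 rose and 1 fell, with a median of 0.42. The others that rose were the protease Ctss (log2 0.47), the costimulator Cd80 (0.94) and the thiol reductase Ifi30 (0.37), and the protease Lgmn fell by 0.40, while Cd86, Cd83 and Cd40 did not pass.

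Genes known from MHC class II high interstitial macrophages were split. Of 13 tested against Lyve1/Folr2 high cells, 6 rose, none fell and the median was 0.66. The list was not particular to the members. Its sum per mouse had a median of 3928 CPM (2767 to 5325) in the members. In Lyve1/Folr2 high cells it was 3033 CPM (2716 to 3473), and in Ccl3/Ccl4 high cells it was higher, at 4696 CPM (4005 to 5572). Itgax had 29.7 through 43.6 to 155 CPM in MHC class II high and 0 through 5.10 to 15.6 CPM in Lyve1/Folr2 high cells (log2 3.51 ± 0.48, adjusted p = 5.76e-07, edgeR). The adhesion molecule Cadm1 had 44.6 through 86.8 to 136 CPM in MHC class II high and 8.30 through 15.3 to 30.0 CPM in Lyve1/Folr2 high cells (2.44 ± 0.30, adjusted p = 8.54e-08, edgeR), and neither pair of ranges overlapped. Cd72 (1.85), Tmem119 (2.16), Cd9 (1.58) and Cx3cr1 (0.66 ± 0.13, adjusted p = 0.000273, edgeR) passed as well. Mmp12 did not pass (3.26 ± 0.91, adjusted p = 0.0599, edgeR; 306 ± 243 CPM in MHC class II high and 45.5 ± 78.9 CPM in Lyve1/Folr2 high cells, higher in 7 of 9 mice), nor did Ms4a7 (0.19 ± 0.12, adjusted p = 0.409, edgeR). Cd81, Gpr183, Tlr2, Il10 and Pou2f2 did not pass either.

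Outside these lists, and within the limits for named genes given below, Ccr2 was the gene with the smallest p among those higher in the members. It had 99.1 through 299 to 419 CPM in MHC class II high and 11.2 through 26.0 to 51.0 CPM in Lyve1/Folr2 high cells (log2 3.52 ± 0.23, adjusted p = 3.92e-11, edgeR), with no overlap. Cytip, which binds cytohesins and loosens adhesion, averaged 145 ± 99.4 CPM in MHC class II high and 14.8 ± 9.16 CPM in Lyve1/Folr2 high cells (3.27 ± 0.33), and the calcium-activated potassium channel Kcnn4 averaged 77.1 ± 42.8 and 5.51 ± 6.47 CPM in the same gates (3.93 ± 0.43). The actin-binding Lsp1 (1.94), the fibril-associated collagen chain Col14a1 (1.58), Plbd1 (1.60), Gngt2 (2.22), Glipr1 (1.56), the junction protein F11r (1.92), Zmynd15 (1.74), the hyaluronan receptor Cd44 (0.96) and the growth arrest gene Btg1 (0.89) followed, each higher in 9 of 9 mice. Of 12 uptake and scavenger receptors, 4 rose and 2 fell (median 0.25). Axl, a receptor for dying cells, had 223 through 354 to 629 CPM in MHC class II high and 94.4 through 133 to 193 CPM in Lyve1/Folr2 high cells (1.41 ± 0.18, adjusted p = 9.32e-06, edgeR), and Itgav, Havcr2 and Itgb5 also rose, while the scavenger receptors Cd36 and Msr1 fell by 1.23 and 0.70. Of 14 matrix remodelling genes, Pdgfb, Adam8, Mmp14 and Plaur rose and Timp2, an inhibitor of matrix proteases, fell (median 0.83). Ear2, the single alveolar macrophage marker tested, was also higher (4.46 ± 0.58, adjusted p = 2.87e-07, edgeR), and it was seen in 6.63% of members, 1.04% of Lyve1/Folr2 high and 0.635% of endothelial barcodes. The part of alveolar macrophage transcripts in these differences was not tested, and 14 members had 2 or more UMIs of that list.

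Genes known from LYVE1-high macrophages were lower in the members than in Lyve1/Folr2 high cells. Of the 19 in the list, all tested, 17 fell and none rose, with a median of -1.65. Ccl24, an eosinophil chemokine, had 15.5 through 58.1 to 149 CPM in MHC class II high and 266 through 602 to 745 CPM in Lyve1/Folr2 high cells (-3.06 ± 0.18, adjusted p = 2.41e-16, edgeR). Timd4, a receptor for phosphatidylserine on dying cells, was at 0 in most mice in MHC class II high cells, with 31.0 CPM at most, and had 52.3 through 85.2 to 145 CPM in Lyve1/Folr2 high cells (-4.10 ± 0.44). The platelet chemokine Pf4 (-1.10), the selenium carrier Selenop (-0.94), the mannose receptor Mrc1 (-1.05 ± 0.12, with 962 ± 323 CPM in MHC class II high and 1975 ± 221 CPM in Lyve1/Folr2 high cells), the haemoglobin receptor Cd163 (-1.65), F13a1 (-2.52), Cd209d (-5.09) and Igf1 (-0.87) fell with them. Mgl2 (-0.38) and Stab1 (-1.01, adjusted p = 0.054, edgeR) did not pass. Mrc1 was still seen in 94.9% of members, 99.1% of Lyve1/Folr2 high and 4.55% of endothelial barcodes.

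Outside that list the endothelin receptor Ednrb fell by 5.47 on the log2 scale, with 0 in most mice and 44.6 CPM at most in MHC class II high cells, against 114 through 218 to 440.3 CPM in Lyve1/Folr2 high cells (adjusted p = 2.94e-15, edgeR). The iron handling genes Hmox1, a haem oxygenase (-1.44; 507 ± 139 CPM in MHC class II high and 1424 ± 429 CPM in Lyve1/Folr2 high cells), and Slc40a1, the iron exporter (-5.41, 1 UMI in the members), fell. The lectin Clec10a (-2.52), the antibody receptor Fcgrt (-1.53), the enzyme Cd38 (-2.32), Pmp22 (-1.21), Rgl1 (-1.35) and Rnase4 (-1.42) were lower in 9 of 9 mice. Mmp9, of the neutrophil list, was also lower, with log2 values of -1.84 to -0.72 over 21 other settings. Of 9 complement genes outside the rule, 6 fell and none rose (median -0.82), among them C4b (-3.05), the complement receptors Vsig4 (-7.24), C5ar1 (-0.82) and C3ar1 (-0.39), and properdin, Cfp (-0.93). Of 20 cytokine genes, Ccl2, Tnf, Ccl12, Ccl7, Ccl9 and Nfkbiz fell and Cxcl16, a chemokine of T cells, rose by 0.66 (median -0.37). Only the members were limited in Ccl3 and Ccl4 UMIs, and the part of that limit in these falls was not tested. Tnf had 149 through 190.0 to 604 CPM in MHC class II high and 452 through 652 to 864 CPM in Lyve1/Folr2 high cells (-1.37 ± 0.15, adjusted p = 8.57e-08, edgeR), and these ranges overlapped.

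**Figure D2:**
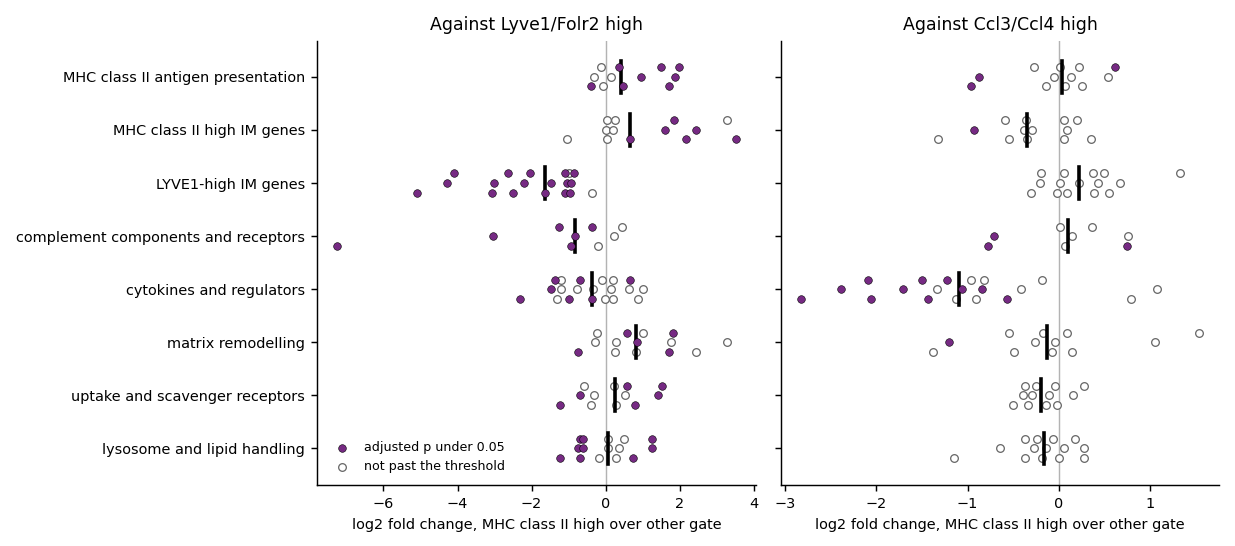
Log2 fold change of MHC class II high over each other gate for the tested genes of 8 lists (1 point a gene; filled, adjusted p under 0.05 by edgeR; black bar, median of the list; grey line, 0). Against Lyve1/Folr2 high cells 17 of 19 LYVE1-high genes lay below 0 and passed, and against Ccl3/Ccl4 high cells 11 of 20 cytokine genes did.

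Lipid and lysosome genes went both ways against Lyve1/Folr2 high cells. Of 15 tested, 3 rose (Lpl, Abcg1 and Lgals3, at 0.72, 1.25 and 1.25) and 6 fell, among them the proteases Ctsb (-0.70) and Ctsd (-0.76) and the cholesterol exporter Abca1 (-0.62). Of 10 interferon-stimulated genes 2 fell, Ly6e and Rsad2, and of 14 macrophage identity genes 3 fell, C5ar1, Csf1r and Apoe, the last by 0.36. Among 12 inhibitory receptors of the Lair1 family and their partners, Pilra rose by 1.77 ± 0.35 (adjusted p = 0.000327, edgeR) and none fell. Ribosomal protein genes moved as a block, with 72 of 89 higher (median 0.45). The mouse was the block in this fit, and the members were shallower by their medians (4558 UMIs, against 5801 in Lyve1/Folr2 high cells) and had fewer hashtag doublets (7 of 203 cells, against 282 of 1722). Leaving out each mouse gave 494 to 617 called genes. Cells with 2 or more UMIs of the dendritic cell or of the alveolar macrophage list were then removed from both gates, among them 49 members and 1026 Lyve1/Folr2 high cells by the dendritic list, which holds Clec10a. The count was then 249, of which 232 were among the 613.

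Against Ccl3/Ccl4 high macrophages the members carried fewer inflammatory transcripts. These gates were divided by UMIs of the chemokine genes Ccl3 and Ccl4 in the same cells. Genes that go along with these chemokines thus differ through the division itself. Only the members also needed at least 10 MHC class II UMIs. Of 3239 genes tested in the same 9 mice, 25 passed as higher (0.772%) and 142 as lower (4.38%), 5.16% in all, and the median over all genes was 0.03. Tnf had 149 through 190.0 to 604 CPM in MHC class II high and 1287 through 1662 to 2154 CPM in Ccl3/Ccl4 high cells (log2 -2.83 ± 0.20, adjusted p = 3.54e-06, edgeR), with no overlap. Of 20 cytokine genes 11 fell and none rose (median -1.09). They included Ccl2, with 588 through 1274 to 2333 CPM in MHC class II high and 2519 through 3006 to 5645 CPM in Ccl3/Ccl4 high cells (-1.43 ± 0.22, adjusted p = 0.00405, edgeR), the inflammasome sensor Nlrp3 (-1.22), Cxcl1 (-2.10), Cxcl2 (-1.71) and Cxcl3 (-2.38), and the feedback inhibitors Tnfaip3 (-1.06) and Nfkbiz (-0.85). Il1b did not pass (-0.97 ± 0.35, adjusted p = 0.186, edgeR).

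Interferon transcripts were lower too, between gates divided in the same way. Ifnb1, interferon beta, had 0 through 7.23 to 82.5 CPM in MHC class II high and 5.47 through 156 to 266 CPM in Ccl3/Ccl4 high cells (-3.03 ± 0.38, adjusted p = 4.12e-05, edgeR), with overlapping ranges. Of 8 interferon-stimulated genes 4 fell and none rose (median -1.44): Ifit1 (-2.47), Cxcl10 (-2.62, with 243 ± 148 CPM in MHC class II high and 1366 ± 188 CPM in Ccl3/Ccl4 high cells), Rsad2 (-2.35) and Isg15 (-1.87). Of the presentation list the costimulators Cd83, with 2798 ± 890 CPM in MHC class II high and 5007 ± 266 CPM in Ccl3/Ccl4 high cells (-0.96 ± 0.13, adjusted p = 0.000276, edgeR), and Cd86 (-0.88) fell. H2-DMa rose, at 402 through 494 to 594 CPM in MHC class II high and 235 through 315 to 419 CPM in Ccl3/Ccl4 high cells (0.61 ± 0.12, adjusted p = 0.00231, edgeR). Of 12 presentation genes these were the 3 that passed, and none of 15 LYVE1-high genes did (median 0.22).

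Further genes lower than in Ccl3/Ccl4 high cells were the stress gene Ppp1r15a (-1.01), the bacterial lipoprotein receptor Tlr2 (-0.93), the calcineurin regulator Rcan1 (-2.39), the ubiquitin ligase Peli1 (-0.98), the protease Plau (-1.21), the inhibitory receptors Lilrb4a (-0.66) and Lilr4b (-0.87), the endotoxin co-receptor Cd14 (-0.81) and C5ar1 (-0.78). The lower set also held Ifrd1, Tgif1, Ifi207, Slfn2, Maff, Plek, Rabgef1 and Cflar. Higher genes were the MAP kinase phosphatase Dusp6, with 61.8 through 117 to 193 CPM in MHC class II high and 21.9 through 33.6 to 76.4 CPM in Ccl3/Ccl4 high cells (1.54 ± 0.25, adjusted p = 0.00033, edgeR), Txnip (0.86), the nucleotide receptor P2ry6 (0.77), Srsf9 (0.66), Capg (0.61), S100a4 (1.32), Tspan3 (0.81), Cfp (0.75) and Mmp9 (1.74). Mmp9 is on the neutrophil list, of which 3 members held at least 20 UMIs. Ccr2 (0.49), Itgax (-0.29), Cx3cr1 (0.36), Axl (0.15), Ms4a7 (-0.36) and Mmp12 (-0.55) did not pass, which does not show them equal. The count fell to 111 without WT tumor-bearing replicate 1, to 70 without the WT tumor-bearing mice and to 90 without the LAIR1KO normal mice.

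MHC class II high cells were a smaller share in each LAIR1KO than in each WT tumor-bearing mouse, and a larger share in each LAIR1KO than in each WT normal mouse at full depth. The exact test of 3 mice against 3 cannot pass 0.05. Of all assigned cells they made up 1.20, 0.983 and 1.40% in LAIR1KO tumor-bearing, 2.41, 1.56 and 2.48% in WT tumor-bearing, 1.31, 2.60 and 2.34% in LAIR1KO normal and 1.13, 0.954 and 0.126% in WT normal mice. Of C1q-high macrophages they made up 6.16, 6.22 and 6.34% in LAIR1KO tumor-bearing, 10.2, 9.95 and 10.9% in WT tumor-bearing, 10.0, 15.5 and 12.9% in LAIR1KO normal and 6.30, 7.38 and 1.18% in WT normal mice. This order held by either denominator before thinning.

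Among C1q-high macrophages the difference was -4.09 percentage points for LAIR1KO against WT in tumor-bearing lung and 7.86 points in normal lung. Tumor-bearing against normal lung differed by -6.57 points in LAIR1KO and by 5.38 points in WT mice. In each of these 4 comparisons the two-sided exact permutation p was 0.1, the smallest that 3 mice against 3 allow, so none could pass 0.05. Of all assigned cells the differences were -0.956, 1.35, -0.888 and 1.42 points in the same order, with exact permutation p of 0.1, 0.1, 0.2 and 0.1. With labels permuted within the other factor, the genotypes differed by 1.89 points of C1q-high macrophages (exact permutation p = 0.445) and tumor-bearing from normal lungs by -0.596 points (p = 0.79, exact permutation, the smallest possible being 0.005). After thinning to 3000 UMIs the shares of C1q-high macrophages were 9.24, 7.10 and 6.83% in LAIR1KO tumor-bearing, 12.0, 12.6 and 14.5% in WT tumor-bearing, 15.5, 15.7 and 12.4% in LAIR1KO normal and 7.32, 12.7 and 5.13% in WT normal mice, and the normal groups then overlapped while the tumor-bearing groups did not. Cells too shallow to be thinned were left out of these shares. Thinned shares were also taken of the assigned cells that remained, which were fewer than all assigned cells. In tumor-bearing lung they were 2.68, 1.51 and 1.95% in LAIR1KO and 3.44, 2.59 and 4.19% in WT mice. In normal lung they were 2.72, 3.74 and 3.18% in LAIR1KO and 1.72, 2.21 and 0.760% in WT mice. By this smaller denominator the tumor-bearing groups overlapped and the normal groups did not. The part of the cells left out differed between mice, and its effect on this overlap was not tested. The limits are in UMIs, and the depth of the cells differed between the groups as given above, and beyond the thinned shares the part of depth was not tested. The genotype in normal lung is joined with sex, and with 1 library a group the share cannot be told apart from the library.

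**Figure D3:**
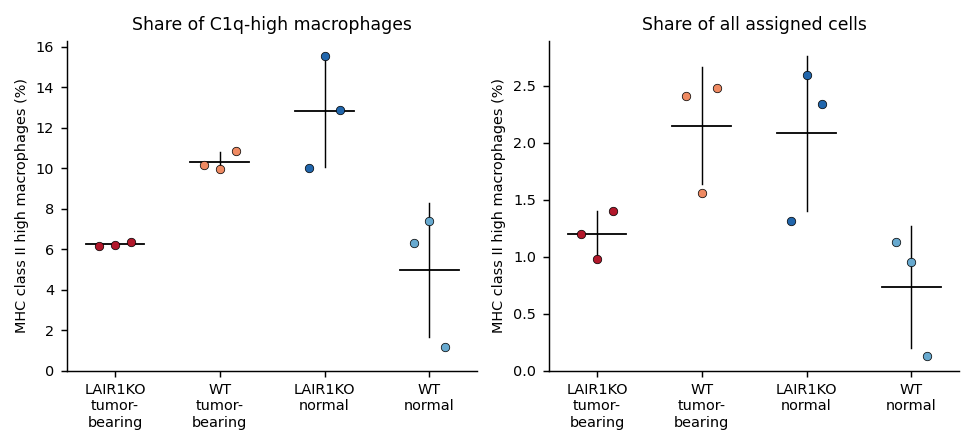
Share of MHC class II high macrophages per mouse, of C1q-high macrophages (left) and of all assigned cells (right), in %, for 3 mice in each of 4 groups (points, mice; bar, mean; line, SD). Of C1q-high macrophages the 3 LAIR1KO tumor-bearing mice sat at 6.16 to 6.34% and the 3 WT tumor-bearing mice at 9.95 to 10.9%.

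In tumor-bearing lung, Cytip, Gadd45b, Rel, Malt1, Bcl2a1d, Bcl2a1b, Cebpb and Jdp2 were higher in LAIR1KO than in WT members, and C3, Sat1 and Lair1 were lower. Of 1744 genes tested, 8 passed as higher (0.459%) and 3 as lower (0.172%), 0.631% in all, and 186 had an unadjusted p under 0.05. The median over all genes was -0.01. The number of calls moved with single mice and cells, and the size of the differences moved too. With each mouse left out, the log2 fold change was 2.14 to 3.10 for Cytip, 1.22 to 1.61 for Gadd45b, 1.02 to 1.43 for Rel, 1.58 to 2.31 for Bcl2a1d and -2.18 to -1.57 for C3. Over all other settings it was 1.08 to 3.10 for Cytip, 1.07 to 1.61 for Gadd45b, 0.73 to 1.43 for Rel, 1.12 to 2.31 for Bcl2a1d and -2.18 to -1.18 for C3. Without WT tumor-bearing replicate 1 no gene passed, without WT tumor-bearing replicate 2 or LAIR1KO tumor-bearing replicate 2 there were 2 calls each, without WT tumor-bearing replicate 3 there was 1, and without LAIR1KO tumor-bearing replicate 3 there were 6. Removing the members marked by Scrublet left 1 call, and removing those with dendritic or alveolar macrophage markers gave 2, of which 1 was among the 11. With HTODemux calls alone 16 genes passed, of which 2 were among the 11. With these calls 5 of 12 mice had at least 10 members, so that fit rests on fewer mice. Of the 11, the 10 genes other than Sat1 kept their direction in each of the 18 or 19 other settings in which they were tested.

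Cytip (chromosome 2, 58129137 to 58195532, minus strand) had 119, 170.3 and 289 CPM in LAIR1KO tumor-bearing and 15.8, 58.2 and 28.9 CPM in WT tumor-bearing mice (log2 2.60 ± 0.48, adjusted p = 0.0114, edgeR). All LAIR1KO mice lay above all WT mice, and the normal lungs, with 174, 279 and 169.9 CPM in LAIR1KO and 187 and 134 CPM in WT mice, lay near the LAIR1KO tumor-bearing ones. Gadd45b, a stress gene induced by NF-kappa B, had 549.8, 898 and 588 CPM in LAIR1KO and 214, 233 and 304 CPM in WT tumor-bearing mice (1.47 ± 0.27, adjusted p = 0.0114, edgeR). Rel, the NF-kappa B subunit c-Rel, had 476, 820.4 and 577 CPM in LAIR1KO and 309, 204 and 282 CPM in WT tumor-bearing mice (1.27 ± 0.27, adjusted p = 0.03, edgeR). Both genes were separated between the genotypes, and the normal lungs lay between or near the LAIR1KO values. Malt1, a protease that switches on NF-kappa B, had 178, 619 and 371 CPM in LAIR1KO and 71.3, 126 and 137 CPM in WT tumor-bearing mice (1.83 ± 0.39, adjusted p = 0.03, edgeR), the lowest LAIR1KO mouse being close to the highest WT one.

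Bcl2a1d and Bcl2a1b, anti-apoptotic relatives of Bcl-2, are near-identical copies whose reads may have been split, so their values are uncertain. Bcl2a1d had 535, 774 and 371 CPM in LAIR1KO and 103, 243 and 123 CPM in WT tumor-bearing mice (1.89 ± 0.37, adjusted p = 0.0291, edgeR), and Bcl2a1b had 921, 1594 and 928 CPM in LAIR1KO and 364, 563 and 528 CPM in WT tumor-bearing mice (1.29 ± 0.27, adjusted p = 0.03, edgeR). In these 2 genes the LAIR1KO tumor-bearing mice also lay above the normal mice of both genotypes. Cebpb, a transcription factor of myeloid cells, had 2571, 2399 and 1969 CPM in LAIR1KO and 554, 874 and 1533 CPM in WT tumor-bearing mice (1.27 ± 0.27, adjusted p = 0.0376, edgeR). Jdp2, a repressor of AP-1, had 238, 635 and 361 CPM in LAIR1KO and 79.2, 146 and 152 CPM in WT tumor-bearing mice (1.74 ± 0.38, adjusted p = 0.0376, edgeR). C3 (chromosome 17, 57203970 to 57228136, minus strand), the central complement component, had 104, 31.0 and 72.2 CPM in LAIR1KO and 348, 214 and 224 CPM in WT tumor-bearing mice (-1.86 ± 0.40, adjusted p = 0.03, edgeR). Sat1, an X-linked enzyme of polyamine breakdown that is named here after its values were seen, had 505, 681 and 505 CPM in LAIR1KO and 1275, 1252 and 1019 CPM in WT tumor-bearing mice (-1.03 ± 0.23, adjusted p = 0.0376, edgeR). All 4 were separated between the genotypes. Over those settings, Lair1 kept its call in 15, Gadd45b and Bcl2a1d in 12, Cytip in 11 and Bcl2a1b in 10, while C3 and Cebpb kept theirs in 7.

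**Figure D4:**
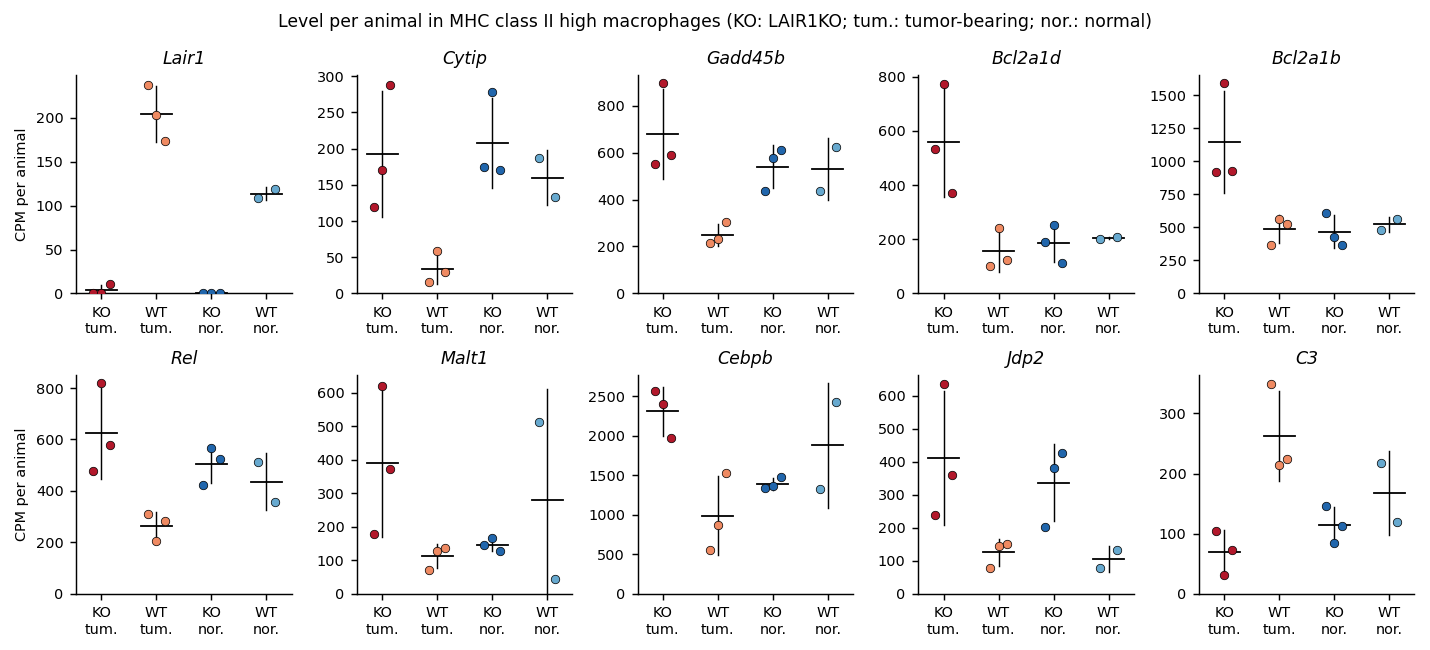
Level of 10 genes per mouse in MHC class II high macrophages (CPM, axes from 0) in LAIR1KO tumor-bearing, WT tumor-bearing, LAIR1KO normal and WT normal lungs (points, mice with at least 5 cells; bar, mean; line, SD). Lair1 was near 0 in both LAIR1KO groups, and in tumor-bearing lung the 3 LAIR1KO mice lay above the 3 WT mice for 8 genes and below them for C3.

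**Figure D5:**
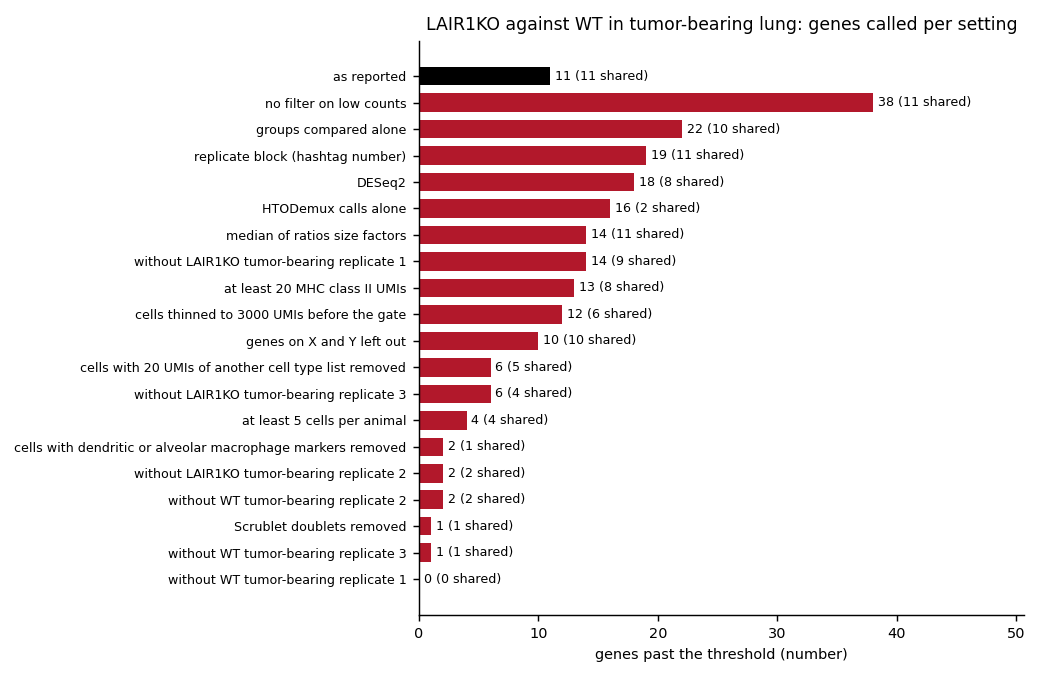
Number of genes past an adjusted p of 0.05 for LAIR1KO against WT in tumor-bearing lung, as reported (black) and under 19 other settings (red), with the number shared with the reported 11 in brackets. The count ran from 0 without WT tumor-bearing replicate 1 to 38 with no filter on low counts.

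Markers of other cells moved with single mice of this comparison. Neutrophil markers summed to 155 to 8767 CPM in LAIR1KO tumor-bearing and 408 to 419 CPM in WT tumor-bearing mice, and epithelial markers to 520.1 to 722 CPM in LAIR1KO tumor-bearing and 657 to 12289 CPM in WT tumor-bearing mice. Without the cells that held 20 or more UMIs of another cell type's list, 6 genes passed, 5 of them among the 11. Their part in the other 6 calls was not tested further. Among cytokine genes, none of 19 passed (median 0.87). Il1b had 2273, 4164 and 2175 CPM in LAIR1KO and 451, 1039 and 564 CPM in WT tumor-bearing mice, and Cxcl2 had 6582, 8529 and 3783 CPM in LAIR1KO and 2589, 3067 and 954 CPM in WT tumor-bearing mice. The genotypes did not overlap in either gene, and neither passed.

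None of 10 genes of the presentation list passed between the genotypes in tumor-bearing lung (median 0.24), nor of 11 genes known from MHC class II high macrophages (median 0.33) or of 13 known from LYVE1-high macrophages (median -0.30). Mmp12 (2.23 ± 0.75, adjusted p = 0.347, edgeR) and Ms4a7 (-0.46 ± 0.31, adjusted p = 0.655, edgeR) did not pass. Of 7 complement genes C3 fell, and of 10 inhibitory receptors and partners Lair1 did. The next lower genes by p, none past the threshold, were Tcim (62.0 ± 52.5 CPM in LAIR1KO and 224 ± 45.2 CPM in WT, adjusted p = 0.0863, edgeR), the interferon-induced Ly6e, the copper ferroxidase Cp, Dnajb14 and the TGF-beta receptor Tgfbr2.

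Between LAIR1KO and WT members of normal lung, 1 of 1516 genes passed (0.066%), the sex-linked Xist, with 118 at an unadjusted p under 0.05 and 3 calls by DESeq2. Only 2 WT normal mice with 8 and 9 cells entered. Lair1 did not pass there (-6.35 ± 1.26, adjusted p = 0.078, edgeR), with 0 in all 3 LAIR1KO normal and 109 and 119 CPM in the 2 WT normal mice. Col14a1 had 319, 260.3 and 283 CPM in LAIR1KO normal and 31.1 and 104 CPM in WT normal mice (2.07 ± 0.43, adjusted p = 0.078, edgeR). Apoe averaged 14355 ± 2740.5 CPM in LAIR1KO normal and 6286 ± 3240 CPM in WT normal mice (adjusted p = 0.214, edgeR). Zfp36l1, Zfhx3 and Lst1 were the next by p among those higher, and Tcim, Plin2, Stap1 and Ftl1-ps1 among those lower, none past the threshold.

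Tumor-bearing and normal lungs of LAIR1KO mice gave no called gene of 1744 (0.0%) by edgeR and none by DESeq2, with 152 at an unadjusted p under 0.05. Within the limits for named genes given below, the smallest p among higher genes was that of Bcl2a1b (1.30 ± 0.28, adjusted p = 0.202, edgeR). It had 921, 1594 and 928 CPM in LAIR1KO tumor-bearing and 610, 428 and 368 CPM in LAIR1KO normal mice. It was followed by the adaptor Stap1 (218 ± 83.3 CPM in tumor-bearing and 66.4 ± 9.23 CPM in normal lung), Bcl2a1d, Tpd52 and Nfkb1, the NF-kappa B subunit p105. The mannosidase Man1a (88.4 ± 21.7 CPM in tumor-bearing and 265 ± 58.5 CPM in normal lung, adjusted p = 0.202, edgeR), the noncoding RNA Gas5, the prostaglandin receptor Ptger4, the proton sensor Gpr65 and Apoe were lower in tumor-bearing lung without passing.

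Between tumor-bearing and normal lungs of WT mice 2 of 1516 genes passed (0.132%), Xist, which follows sex, and Col14a1 (chromosome 15, 55307750 to 55520803, plus strand), with 120 at an unadjusted p under 0.05 and 2 calls by DESeq2. Col14a1 had 364, 311 and 296 CPM in WT tumor-bearing and 31.1 and 104 CPM in WT normal mice (2.20 ± 0.42, adjusted p = 0.0424, edgeR), the 2 WT normal mice having 9 UMIs in all. The call was kept in 5 of 16 other settings. Ly6e, Clec12a, Cx3cr1, Lst1 and Srsf2 followed as higher and H2-DMb1, with 231 ± 90.8 CPM in WT tumor-bearing (n = 3) and 630.3 ± 10.0 CPM in WT normal mice (n = 2; adjusted p = 0.131, edgeR), Socs3, Neat1, Cytip and Etv3 as lower, none past the threshold. Cytip had 15.8, 58.2 and 28.9 CPM in WT tumor-bearing and 187 and 134 CPM in WT normal mice (-2.25 ± 0.56, adjusted p = 0.174, edgeR). The genotype effect differed between tumor-bearing and normal lung in 2 of 1516 genes (0.132%), again Xist and Col14a1, with 165 at an unadjusted p under 0.05 and 12 calls by DESeq2. Apart from C3 and Lair1 in tumor-bearing lung, no list had a member past the threshold in a comparison between groups.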

How the data were processed

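Per the labels, the V3 kit of 10x Genomics was used for 3' libraries, with hashtag antibodies on the cells. The deposited values are UMI counts per gene, hashtag and barcode, made by the authors with Cell Ranger 4.0.0, with STAR, R 4.0.0, Seurat 3.2.0 and mm10 also listed in the submitters' processing notes.

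Hashtags were called with Seurat 5.3.0 (HTODemux, quantile 0.99). Barcodes without a call went to their top hashtag where its normalized value was at least 2 times the second. These values are on a log scale (centred log-ratio), so this is not a ratio of counts. HTODemux alone assigned 112 of the 203 members, and 189 were assigned with this rescue. That rescue was used because HTODemux alone left at least 10 members in only 5 of 12 mice. Hashtag doublets entered no test, and the 339 of 15793 barcodes marked by Scrublet (scanpy 1.11.5) stayed in, with their removal as an alternative. Of 32285 genes, 32235 had a position.

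UMIs were summed per mouse and gate and tested with edgeR 4.0.16 (R 4.3.3) by its quasi-likelihood test, with TMM, filterByExpr and Benjamini-Hochberg adjustment over all genes tested at 0.05. The groups shared 1 estimate of spread, and mice with at least 10 members entered. Comparisons with WT normal lungs took mice with at least 5, because only 2 such mice had 8 and 9, which was decided after seeing the data. Shares were compared by exact permutation tests (scipy 1.17.1). Residual variances are of Pearson residuals with a dispersion parameter of 100.

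Between groups, named genes passed the test, changed at least 1.5-fold, reached 20 CPM and did not overlap, up to 10 each way. Between gates all mice had to share a sign, up to 15 each way. Up to 4 members per list were added, as were Lair1 and the markers of the label. Where fewer than 5 passed, the 5 of smallest p were named as not passing. Not named were genes of the rule, of X and Y, of ribosomes, mitochondria, antibodies and T cell receptors, and unnamed gene models. Sat1 and Xist were named outside this rule after their values were seen. Further list members in the text, such as Cd163, Ear2, Rsad2 and Cfp, were also named beyond these limits and numbers. Their values were not followed over the other settings. The members and the lists were chosen with earlier results of these data known. The code was tested on simulated counts. Alternatives were HTODemux alone, doublet or mixed cells removed, other limits, thinning, DESeq2 1.42.0, another scaling, no filter, other blocks and samples left out.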

Additional observations from a re-analysis of the deposited data

Results flagged for a closer look

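For Col14a1, a collagen chain, the difference between LAIR1KO and WT was not the same in tumor-bearing and normal lung. The difference of the genotype effect was -2.83 (log2, exactly -2.828) ± 0.52 SE with an adjusted p of 0.0321 by edgeR's quasi-likelihood test. Members had 178, 155 and 217 CPM in LAIR1KO tumor-bearing mice and 364, 311 and 296 CPM in WT tumor-bearing mice, and 319, 260.3 and 283 CPM in LAIR1KO normal mice and 31.1 and 104 CPM in WT normal mice. The call was kept in 9 of 22 other settings, with log2 values of -3.91 to -0.93, and the WT normal side rests on 9 UMIs in 2 mice. The part of sex, library and the low number of WT normal cells was not tested. Xist differed in the same way (-10.479 on the log2 scale, adjusted p = 6.21e-09, edgeR), and its call was kept in 21 of 21 other settings. It followed sex, since the WT normal mice were male and the other mice female.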

How the results depend on the processing

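Counts of called genes moved with the settings, and the cause was not tested. The minimum of cells per mouse stayed in force, so settings that remove cells can also remove mice. With HTODemux alone 5 of 12 mice had at least 10 members, so its counts and values at that minimum rest on fewer mice. The number of mice left in each other setting is not given here. For LAIR1KO against WT in tumor-bearing lung (11 genes as reported) there were 1 without Scrublet doublets, 2 without cells that carried dendritic or alveolar macrophage markers, 6 without cells of mixed content, 4 with 5 cells per mouse as the minimum, 38 without a filter on low counts, 18 by DESeq2 and 22 with these 2 groups fitted alone. Leaving out each mouse gave 0 to 14. In normal lung (1) there were 3 after thinning, 9 without mixed cells, 14 without the filter, 3 by DESeq2, 0 without genes on X and Y, and 1 to 6 with a mouse left out. For tumor-bearing against normal lung in LAIR1KO mice (0) there were 9 with HTODemux calls alone, 3 at 20 or more MHC class II UMIs, 2 without dendritic or alveolar markers, 12 after thinning, 1 without mixed cells, 9 without the filter and 0 to 1 with a mouse left out. In WT mice (2) there was 1 with HTODemux alone, 1 at 20 or more MHC class II UMIs, 1 after thinning and 1 with the groups alone, 12 without mixed cells, 28 without the filter, 0 without X and Y, and 1 to 9 with a mouse left out. For the difference of the genotype effect (2) there was 1 with HTODemux alone and 1 at 20 or more MHC class II UMIs, 11 without mixed cells, 28 without the filter, 12 by DESeq2, 0 without X and Y, and 1 to 17 with a mouse left out.

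Against Ccl3/Ccl4 high cells (167) there were 79 with HTODemux alone, 111 without dendritic or alveolar markers, 266 after thinning, 343 without the filter, 70 without WT tumor-bearing mice, 90 without LAIR1KO normal mice and 111 to 209 with a mouse left out. Against Lyve1/Folr2 high cells (613) there were 397 with HTODemux alone, 249 without dendritic or alveolar markers, 405 without LAIR1KO tumor-bearing mice and 494 to 617 with a mouse left out. Removal of mixed cells, the minimum of 5 cells, leaving out a group and the hashtag number were chosen after seeing the data.

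The hashtag numbers did not pair the mice, since same-numbered mice of different groups had correlations of their deviations of -0.129 to 0.0887 over 1752 genes. With that number as a replicate block there were 19 calls for genotype in tumor-bearing lung and 1 for tumor-bearing against normal lung in LAIR1KO mice.

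With a mouse left out, the differences in the share of C1q-high macrophages ran from -4.29 to -3.83 points (LAIR1KO against WT, tumor-bearing), 5.98 to 9.27 (normal), 0.942 to 2.59 (genotype within tumor state), -7.98 to -5.21 (tumor-bearing against normal, LAIR1KO), 3.49 to 6.60 (WT) and -1.54 to 0.0851 (tumor state within genotype). Of all assigned cells they ran in the same order from -1.25 to -0.790, 1.04 to 1.73, 0.044 to 0.389, -1.27 to -0.632, 1.11 to 1.71 and 0.071 to 0.411. The last difference among C1q-high macrophages turned its sign, at 0.804 with HTODemux alone, 0.522 without dendritic or alveolar markers, 0.0851 without LAIR1KO normal replicate 2 and 0.0102 without WT normal replicate 2. Tumor-bearing against normal LAIR1KO lungs turned to 0.193 points of assigned cells with HTODemux alone.

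Of the values of the named genes that were followed over the settings, 24 turned their sign. For LAIR1KO against WT in normal lung these were Plin2 after thinning (0.60), Ms4a7 after thinning (-0.17) and with a mouse left out (-0.41 to 1.83), and Mmp12 with HTODemux alone (-0.089), without mixed cells (-0.091) and with a mouse left out (-0.37 to 8.10). In tumor-bearing lung it was Ms4a7 without dendritic or alveolar markers (0.012). For tumor-bearing against normal LAIR1KO lung they were Apoe (0.012), Ms4a7 (0.11) and Mmp12 (-1.23) with HTODemux alone, Ms4a7 without dendritic or alveolar markers (0.020) and after thinning (0.31), and Mmp12 without LAIR1KO tumor-bearing replicate 2 (-0.17) or LAIR1KO normal replicate 3 (-0.098), in a range of -0.17 to 0.70 with a mouse left out. For WT lung they were Clec12a (-0.15), H2-DMb1 (0.23) and Mmp12 (6.56) after thinning, and, without WT normal replicate 1, Ms4a7 (-0.19, range with a mouse left out -0.19 to 2.07) and Mmp12 (6.17, range -2.29 to 6.17). Between gates they were Mmp12 against Ccl3/Ccl4 high cells after thinning (0.21) and without WT tumor-bearing mice (0.12), and Lair1 against Lyve1/Folr2 high cells without dendritic or alveolar markers (-0.058), without the filter (-0.0017) and without WT tumor-bearing replicate 1 (-0.027, range with a mouse left out -0.027 to 0.25). None of these had passed as reported. Of all values so followed, those that lost their call numbered 87 for genotype in tumor-bearing lung, 63 against Ccl3/Ccl4 high cells and 17 against Lyve1/Folr2 high cells, beside 218, 682 and 1053 that did not change.

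The mice in the gene tests had 8 to 28 member cells each, and each group was 1 library. Counts were simulated with the library sizes of these sums and the same spread for every gene, set in advance and not estimated from these data. The changed genes were drawn from those past a filter on low counts. How many changes would be called at the spread of the real data was not tested. In the simulated counts, 48% of the 2-fold and 94% of the 4-fold changes were called for genotype in tumor-bearing lung. For tumor-bearing against normal LAIR1KO lung 51% and 95% were called. The values were 83% and 100% against Lyve1/Folr2 high cells and 93% and 100% against Ccl3/Ccl4 high cells. The limit of 20 MHC class II UMIs was not run for the comparisons of gates.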
